A study of Mus musculus with 6 samples.

Results

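Psrc1, Sp1 and Aff1 are 3 mouse genes at which p53, the transcription factor that answers DNA damage, gave some of the strongest ChIP-seq peaks of the mouse spleen. They were chosen on the deposited values themselves: in at least 1 of the 4 wild-type peak lists, each carried a peak among the 3 highest values. All peaks within 10 kb of the annotated gene bodies were taken from the 5 lists (mm9, GENCODE vM1), which gave 45 peaks at 23 separate positions for 3 of 22367 protein-coding genes. Because the values chose the genes, their high ranks are a description and carry no test.

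The study set p53 binding in splenic B cells against that in the remaining splenocytes, before and after ionizing radiation (IR). B cells were taken from 8-week-old Trp53+/+ mice of the C57/Bl6 strain with B220 beads, and the cells that the beads left behind, enriched in T cells, form the non-B cells. Both compartments came from mock-treated mice or from mice taken 4 h after a whole-body dose of 7 Gy, which gives mock and irradiated B cells and mock and irradiated non-B cells. The control for the antibody was the whole spleen of irradiated C57/Bl6 mice of the Trp53-/- genotype (7 Gy, 4 h, age not given in the labels), which lack p53 in every cell. Chromatin was pooled over animals and each group was 1 library, so no spread between mice could be measured. The lists held 1413, 24507, 712 and 21400 peaks in the order above and 83 peaks for Trp53-/- spleen IR. The total of reads per library was not given in the peak lists, and a peak list holds no marker against which the sorted cell type could be checked.

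p53 binds DNA as a tetramer, and its response element is a pair of decamers, each built around a C at position 4 and a G at position 7. After DNA damage p53 is stabilised and occupies elements in promoters and introns of genes of cell cycle arrest and apoptosis. Psrc1 (also called DDA3) encodes a proline- and serine-rich protein of microtubules and the mitotic spindle. Sp1 encodes a zinc finger transcription factor that binds GC boxes in many promoters. Aff1 (also called AF4) encodes a scaffold of the super elongation complex, which releases paused RNA polymerase II, and the human gene is a frequent fusion partner of MLL in acute leukaemia.

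The sequence under the highest peak of each gene is shown first, since the genes differed in it. Psrc1 (ENSMUSG00000068744.6) lies on the + strand of mm9 at chr3:108186757-108191149, and the element under its highest peak lies 817 bp inside the gene, in an intron, at chr3:108187574-108187593. Aff1 (ENSMUSG00000029313.11) lies on the + strand at chr5:104121393-104284341, and its element lies 40.39 kb inside the gene, in an intron, at chr5:104161783-104161802. Each is printed from the mm9 reference, 5′ to 3′ on the + strand, with 60 bases on either side and the 20 bases of the element in capitals.
Psrc1: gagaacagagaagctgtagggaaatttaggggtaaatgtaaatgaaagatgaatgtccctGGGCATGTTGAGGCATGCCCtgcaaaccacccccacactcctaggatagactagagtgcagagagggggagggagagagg
Aff1: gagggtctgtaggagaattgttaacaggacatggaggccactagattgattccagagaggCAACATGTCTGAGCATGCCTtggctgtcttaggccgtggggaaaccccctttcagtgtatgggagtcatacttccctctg
Both elements departed from the p53 consensus at 1 of 20 positions. The departure was Y10G at Psrc1 and R1C at Aff1, with positions counted from 1 at the 5′ end of the element, R standing for A or G and Y for C or T. Both elements lay inside the highest peak of their gene in all 4 wild-type lists. In irradiated B cells and irradiated non-B cells, the Psrc1 element was centred 161 and 130 bp from the midpoint of the peak, and in mock B cells and mock non-B cells 45 and 38 bp. The Aff1 element was centred 456, 219, 138 and 188 bp from the midpoints in the same order.

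Sp1 (ENSMUSG00000001280.6) lies on the + strand at chr15:102236574-102266835, and its highest peak held no element of this kind. With C and G required at positions 4 and 7 of each decamer, no spacer and at most 3 mismatches, the scan found none in any of the 4 wild-type peaks, and the nearest match had 4 mismatches. With a spacer of up to 13 bases allowed, all 4 peaks held 1 match, at chr15:102236557-102236577. It had a spacer of 1 base and 3 mismatches, and the share of each whole list with such a match was not counted. The 300 bases at chr15:102236300-102236599, which span the start of the gene and include this spaced match, are printed. They also hold the nearest candidate without a spacer, in capitals.
Sp1: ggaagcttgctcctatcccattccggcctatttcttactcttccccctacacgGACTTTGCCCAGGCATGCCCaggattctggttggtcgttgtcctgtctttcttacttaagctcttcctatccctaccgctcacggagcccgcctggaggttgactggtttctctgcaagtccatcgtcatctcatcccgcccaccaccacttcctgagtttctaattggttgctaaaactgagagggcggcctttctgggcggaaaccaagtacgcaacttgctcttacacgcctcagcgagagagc
The 20 bases in capitals, at chr15:102236353-102236372 and 221 bp upstream of the gene, had only 2 mismatches but 1 of them, C4T, removed a required C, and the other was R3C. This match was looked for after the first scan had found none. With no position required, 2883 of 24507 peaks of irradiated B cells (11.8%) and 2540 of 21400 peaks of irradiated non-B cells (11.9%) held a match with at most 2 mismatches. The second decamer of the Sp1 candidate, AGGCATGCCC, was the same as the second decamer of the Psrc1 element, base for base. This run of bases, on either strand, was in 155 peaks of irradiated B cells (0.632%) and in 125 peaks of irradiated non-B cells (0.584%). A match is a description of letters and was not tested for binding.

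Most strong peaks of the irradiated lists held an element. In irradiated B cells, 14.7% of all peaks had one with at most 3 mismatches and no spacer, against 82.0% of the top 1% of peaks, and in irradiated non-B cells the shares were 14.6% and 81.8%. When every peak was moved by 10 kb, 2.18% and 2.06% of the windows held one. This share was over all peaks and is not given for the top 1% alone. The whole peak was scanned, so a wider peak has more sequence to match, and width was not matched. Sp1 was among the strong peaks without an element: 6 of the 25 highest peaks of irradiated B cells and 4 of the 25 highest of irradiated non-B cells had none. With no position required and at most 3 mismatches, 1 of the 25 highest peaks remained without a match in each irradiated list. Over the whole lists, 23.0% of irradiated B cells peaks and 22.2% of irradiated non-B cells peaks held such a match. No share in moved windows is given for this rule. In the mock lists, where Sp1 was also near the top, 12 of the 25 highest peaks of B cells and 11 of the 25 highest of non-B cells had no element. Over the 3 genes, 3 of 22 peaks of irradiated B cells (13.6%) and 3 of 16 peaks of irradiated non-B cells (18.8%) held an element, which is near the share of each whole list. The third element lay in the irradiated B cells peak at chr5:104181542-104182902 of Aff1, and in a peak of irradiated non-B cells at the same place, and had 3 mismatches. It is printed with 40 bases on either side, since 1 decamer is perfect and all 3 mismatches fell in the other.
Aff1, chr5:104182173-104182192: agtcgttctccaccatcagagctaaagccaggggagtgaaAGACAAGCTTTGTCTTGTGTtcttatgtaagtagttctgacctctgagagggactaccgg

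Most elements in the Aff1 and Sp1 windows had no peak above them. The share over all such elements in the genome was not counted, so these numbers only describe the windows. The Aff1 window of 182.949 kb held 11 elements with at most 3 mismatches, of which 2 lay under an irradiated peak. Of these 11, the element with 1 mismatch was under the highest peak, and 1 of 10 with 3 mismatches was under a peak. The Sp1 window of 50.262 kb held 2 elements with 3 mismatches and neither was under a peak. In the Psrc1 window of 24.393 kb the element shown above was the only one.

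Peaks were found at all 3 genes in all 4 wild-type lists and at none in Trp53-/- spleen IR. Mock B cells had 1 peak at Psrc1, 1 at Sp1 and 2 at Aff1, and mock non-B cells had 1 at each gene. After irradiation B cells had 3 peaks at Psrc1, 2 at Sp1 and 17 at Aff1, and non-B cells had 2, 1 and 13. A peak within 10 kb was present at 4.46% of protein-coding genes in mock B cells, 53.3% in irradiated B cells, 2.27% in mock non-B cells, 51.8% in irradiated non-B cells and 0.125% in Trp53-/- spleen IR. Since the rule demanded a top peak in a wild-type list, the presence of peaks there is not a result. None of the 45 peaks overlapped a peak of the Trp53-/- list. More cells with p53 on the DNA and more p53 on the DNA of each cell cannot be told apart in such data.

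**Figure D1:**
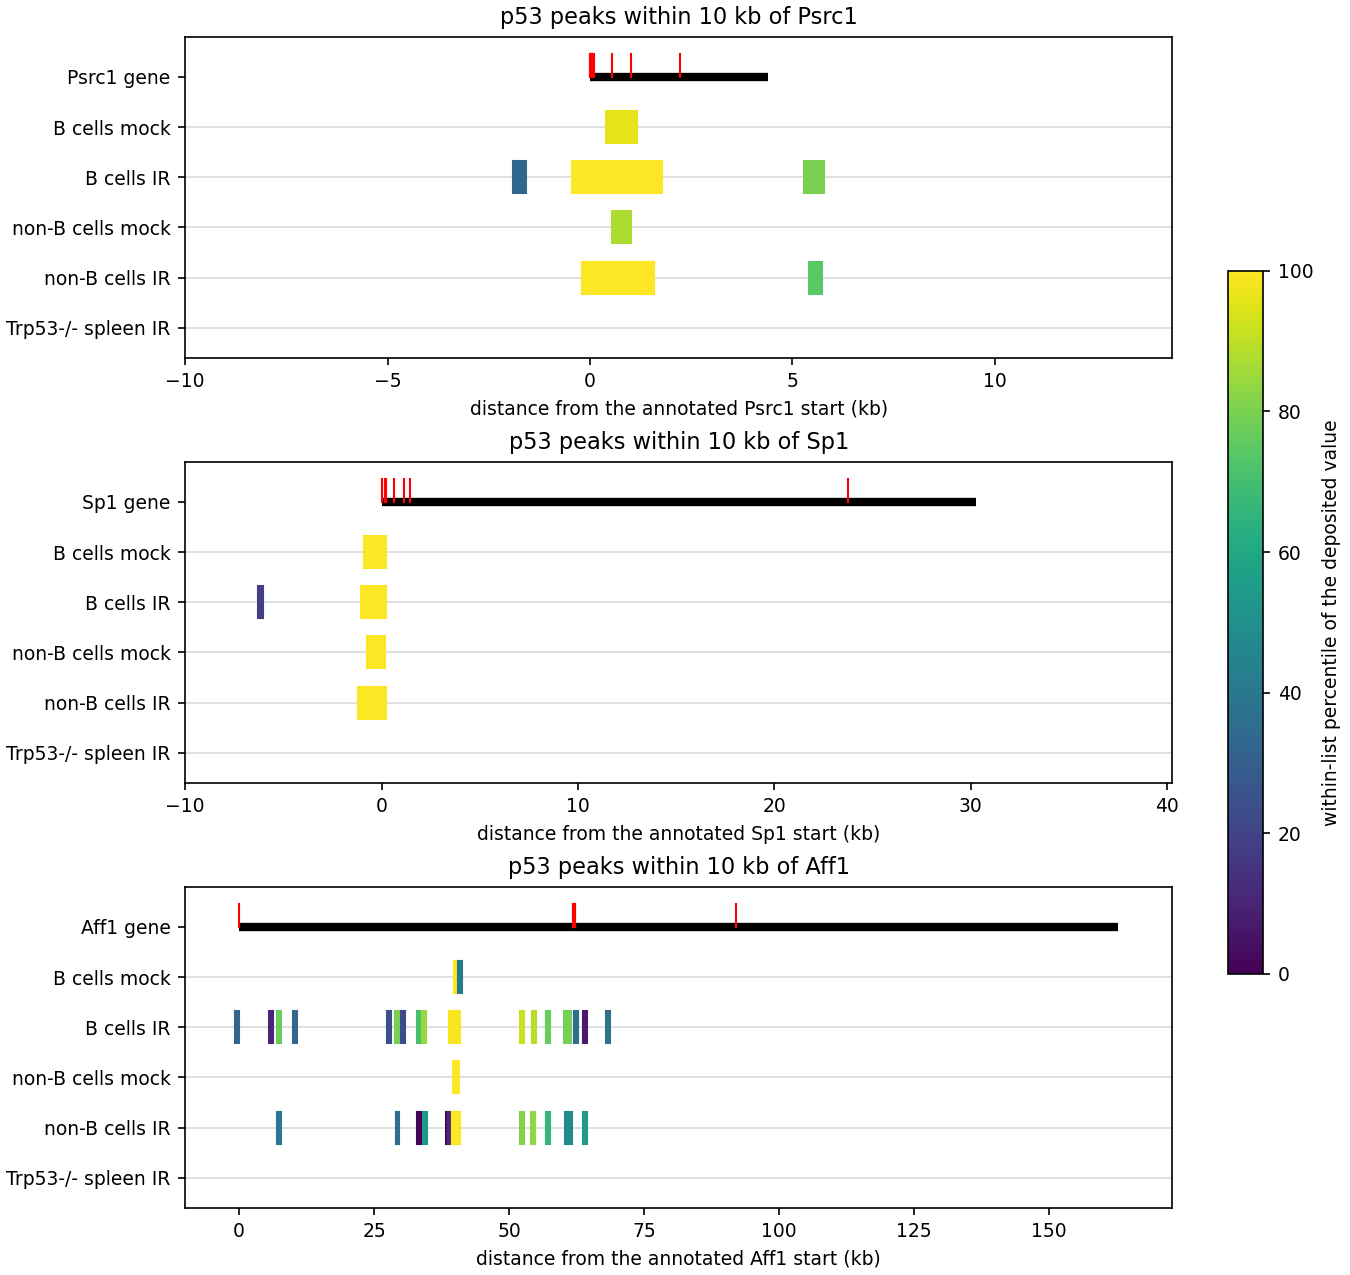
Peaks within 10 kb of Psrc1, Sp1 and Aff1 by list, with the distance from the annotated gene start in kb on the x axis and the percentile of each peak within its own list as colour; the black bar is the gene and red ticks are transcript starts. A single peak near the start stands out at Psrc1 and at Sp1, whereas Aff1 carries 17 peaks in irradiated B cells and 13 in irradiated non-B cells in the first part of the gene, with the highest about 40 kb inside; very narrow peaks are drawn wider for visibility.

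Psrc1 was chosen through its place in the irradiated B cells list and Aff1 through its place in the mock B cells list. Ranks that differ between mock and irradiated lists are therefore partly set by the choice, the lists differ in length, and the differences are a description only. The highest Psrc1 peak had a deposited value, read as the −log10 of the p-value of the peak caller, of 40.44 in mock B cells and 326.39 in irradiated B cells. In non-B cells the values were 27.85 in mock and 598.72 after IR. As the values depend on the depth of each library, ranks within a list were compared: the peak was 56th of 1413 in mock B cells and 1st of 24507 in irradiated B cells, with a peak at Fyn of the same value. It was 89th of 712 in mock non-B cells and 4th of 21400 in irradiated non-B cells. The mock peaks thus stood in the top 3.96% and 12.5% of their lists, and the irradiated peaks in the top 0.00408% and 0.0187%.

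The Psrc1 peak was wider in the irradiated lists, as peaks were in general: the median width was 95 bp in mock and 340 bp in irradiated B cells, and 93 and 315 bp in non-B cells. The Psrc1 peak covered 775 bp in mock B cells and 471 bp in mock non-B cells, both inside the gene from 395 bp and 554 bp after its start. In irradiated B cells it covered 2218 bp, from 442 bp upstream to 1775 bp inside the gene, and in irradiated non-B cells 1796 bp, from 200 bp upstream to 1595 bp inside. The irradiated peaks reached over the first starts of the gene, and the mock peaks lay downstream of these, over later annotated starts. In the RefSeq promoter table (GRCm38.p6), Psrc1 had 2 promoters of 300 bp, and each matched mm9 exactly at 1 place. The irradiated B cells peak covered all 300 bp of both, the irradiated non-B cells peak covered 215 and 249 bp, and the mock peaks covered 0 bp of either.

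The other Psrc1 peaks were far weaker. A peak 5.28 kb after the gene start, between the ends of Psrc1 and Celsr2, had the value 39.47 in irradiated B cells (rank 4888) and 32.19 in irradiated non-B cells (rank 5553). The highest peak exceeded it 8.27-fold in irradiated B cells and 18.6-fold in irradiated non-B cells on the scale of the deposited value. A peak in an intron of the noncoding gene Gm12522 was present in irradiated B cells alone, with the value 14.1 and rank 16463. Gm12522 runs on the opposite strand, and its start lies 98 bp from that of Psrc1, so the irradiated peak covered both starts. Mybphl, which encodes a myosin-binding protein of muscle, ends 3783 bp before Psrc1, and Celsr2, which encodes a cadherin, ends 2620 bp after it.

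Sp1 was near the top of every wild-type list. The value of its highest peak was 121.16 in mock B cells (rank 7) and 321.29 in irradiated B cells (rank 5). In non-B cells it was 128.72 in mock (rank 4, tied with a peak at Mtmr10) and 602.48 after IR (rank 3). The Sp1 peak thus stayed among the first 7 in all 4 lists, while the lists differed in length from 712 to 24507 peaks. It began between 1222 and 760 bp before the gene start and ended between 173 and 205 bp after it. The RefSeq promoter of Sp1 matched mm9 exactly at 1 place, and 279 of its 300 bp were covered in mock B cells, 282 in irradiated B cells, 251 in mock non-B cells and 283 in irradiated non-B cells.

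Base composition set the Sp1 peak apart from that of Aff1. The Sp1 peaks held between 5.46 and 6.42 CpG per 100 bp, which was above 73.3% to 90.4% of the peaks of the same list. At Aff1 the highest peaks held between 0.683 and 0.812 CpG per 100 bp, above 16.3% to 34.7% of their lists. The Psrc1 peaks held 3.29 CpG per 100 bp in both irradiated lists, and 1.29 in mock B cells and 0.849 in mock non-B cells, where the peak did not reach the promoter. Apart from its promoter peak, Sp1 had 1 peak, 6.3 kb before the gene in irradiated B cells, with the value 11.09 (rank 20069). Gm17671 and Amhr2, the receptor of anti-Müllerian hormone, lay 8626 and 8963 bp from the gene, and no peak in the window covered either.

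The highest Aff1 peak had the value 142.63 in mock B cells and was 3rd of its list, and it had 127.74 in mock non-B cells and was 6th. After irradiation its value was 194.94 in B cells (rank 276) and 490.24 in non-B cells (rank 41). As a share of the list, it went from the top 0.212% to the top 1.13% in B cells and from the top 0.843% to the top 0.192% in non-B cells. Aff1 had been chosen on its place in mock B cells, so a lower place in another list is partly built in. The order depends on the measure: by width the peak was 11th of 1413 in mock B cells and 62nd of 24507 in irradiated B cells, a higher place by share after irradiation. The peak was 985 and 1013 bp wide in mock B cells and mock non-B cells, and 2005 and 1464 bp wide in irradiated B cells and irradiated non-B cells.

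**Figure D2:**
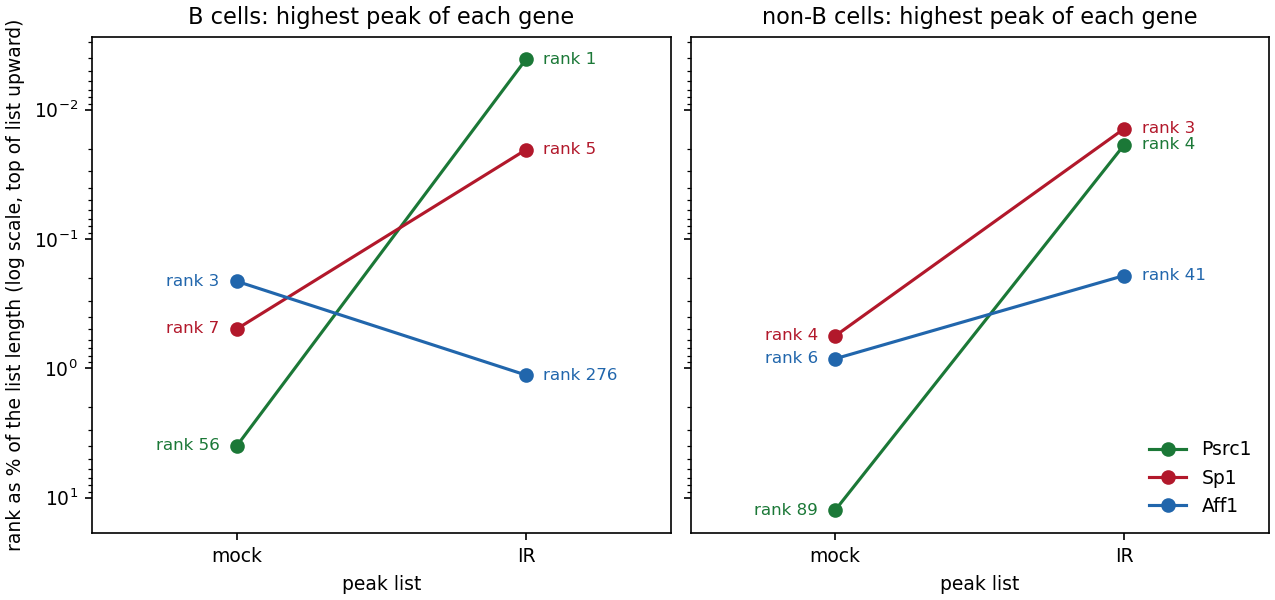
Rank of the highest peak of each gene as a percentage of the length of its list, on a log axis with the top of the list upward, in mock and irradiated B cells (left) and non-B cells (right). Psrc1 moves from rank 56 to 1 and from 89 to 4, Sp1 stays between 3 and 7, and Aff1 moves from 3 to 276 and from 6 to 41; each point is 1 library and has no error.

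The limit of the choice ran close to these peaks. In mock B cells, Aff1 was just inside with 142.63 and the next peak, at Mtmr10, had 137.69. In mock non-B cells the 3rd peak had 129.12, and Sp1 with 128.72 and Aff1 with 127.74 were just outside. In irradiated non-B cells, Sp1 was just inside with 602.48 and Psrc1 just outside with 598.72. Sp1 in irradiated B cells, with 321.29, followed a pair of peaks at 323.27.

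Aff1 carried many lesser peaks, which Psrc1 and Sp1 did not. Its 17 peaks in irradiated B cells were exceeded by 25 of 22367 protein-coding genes, and its 13 peaks in irradiated non-B cells by 34. Per 100 kb of window this was 9.29 peaks in irradiated B cells and 7.11 in irradiated non-B cells, against a mean of 1.89 and 1.68 over the windows of all protein-coding genes. By this density 1536 and 2265 genes stood above Aff1, among them Psrc1, whose window is short. Psrc1 had 12.3 and 8.2 peaks per 100 kb, from 3 and 2 peaks, and Sp1 had 3.98 and 1.99, from 2 and 1.

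**Figure D3:**
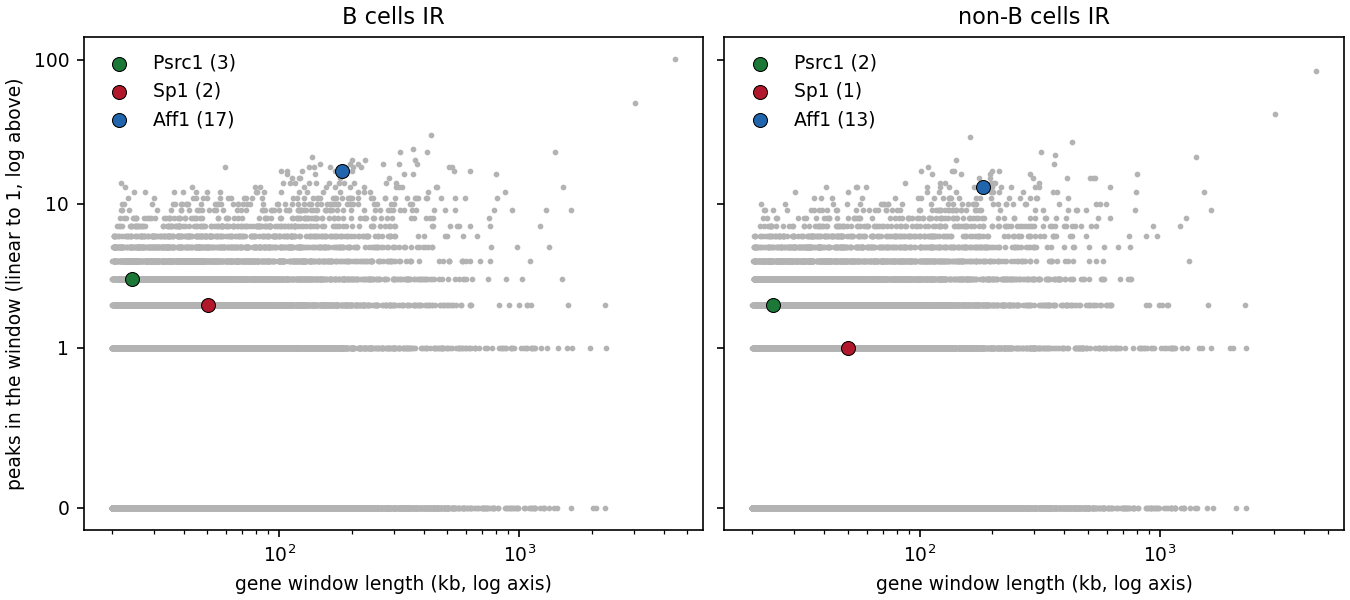
Number of peaks against the length of the gene window in kb (log axis) for all 22367 protein-coding genes (grey) and the 3 genes (coloured), in irradiated B cells (left) and irradiated non-B cells (right); the y axis is linear up to 1 and logarithmic above. Aff1, with 17 and 13 peaks in 182.949 kb, lies near the upper edge for its length, and Psrc1 and Sp1 lie among the many genes with 1 to 3 peaks.

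The Aff1 peaks were gathered in the first part of the gene. In irradiated B cells they ran from 702 bp before the annotated start to 68.53 kb inside, and the remaining 94.418 kb of the gene held none. In irradiated non-B cells they ran from 7.22 to 64.29 kb inside, with 98.658 kb beyond without a peak. Aff1 has 6 annotated transcripts: 1 starts at the gene start, 4 start together at chr5:104183181-104183592, which is 61.788 kb downstream, and 1 starts later. Between the first start and this group of starts lay the midpoints of 13 of 17 peaks in irradiated B cells and 12 of 13 in irradiated non-B cells. All of these were in introns of the long transcript. The highest peak lay in its intron 2, and its element was 21.398 kb upstream of the group of starts.

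Few of these peaks were at a start of Aff1. In irradiated B cells a peak with the value 15.14 covered 2 of the 4 grouped starts and had its midpoint in a coding exon, and another with 14.1 lay between 702 and 168 bp before the first start. Neither was present in irradiated non-B cells. The RefSeq table gave 2 Aff1 promoters, both exact in mm9 and both at the group of starts; the irradiated B cells peak covered 68 of 300 bp of the later one and 0 bp of the other, and no other list had a peak over them. Klhl8, which encodes a kelch protein, ends 6651 bp beyond Aff1 and was the only other gene in the window.

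**Figure D4:**
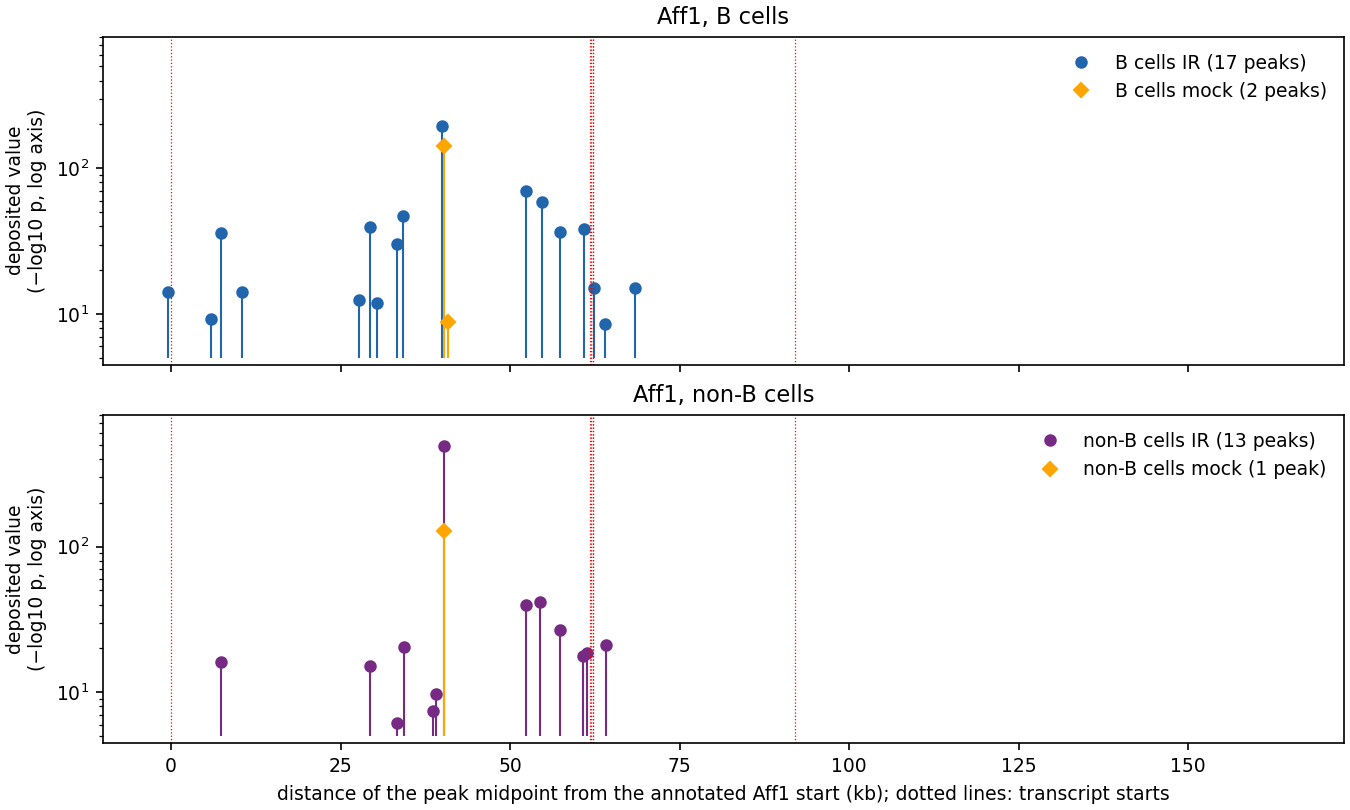
Deposited value of each Aff1 peak (read as −log10 p, log axis) against the distance of its midpoint from the annotated gene start in kb, for B cells (top) and non-B cells (bottom), with irradiated peaks as circles, mock peaks as diamonds and transcript starts as dotted lines. The peak about 40 kb inside the gene is the highest in every list, from 127.74 in mock non-B cells to 490.24 in irradiated non-B cells, and no peak lies beyond 68.53 kb.

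All 4 peaks of mock B cells and all 3 of mock non-B cells in the windows overlapped an irradiated peak of the same compartment by at least 1 bp. The second Aff1 peak of mock B cells, with the value 8.76 and rank 841, lay under the same irradiated peak as the first. In the other direction, 3 of 22 irradiated B cells peaks (13.6%, Wilson 95% interval 4.75 to 33.3%) overlapped a mock peak, against 4.28% of the whole list. In irradiated non-B cells it was 3 of 16 (18.8%, 6.59 to 43.0%) against 2.43%. The 3 irradiated peaks were the highest of the 3 genes in both compartments, and the genes were chosen on peaks of this kind, so the shares say nothing further. The intervals cover counting error only.

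Between the irradiated compartments, 13 of 22 peaks of irradiated B cells (59.1%, interval 38.7 to 76.7%) overlapped a peak of irradiated non-B cells, against 73.6% of the whole list. In the other direction 15 of 16 (93.8%, 71.7 to 98.9%) overlapped, against 85.3%. Both whole-list shares lay within the intervals of the 3 genes, but these intervals treat peaks as independent. Of the 22 and 16 peaks, 17 and 13 lay in the single gene Aff1. The highest peak of each gene, on which the choice was made, was among the overlapping peaks. The shares are thus a description only. Aff1 accounted for most of the difference in number: 10 of its 18 positions had a peak in both irradiated lists, 7 in irradiated B cells alone and 1 in irradiated non-B cells alone. The 7 in B cells alone had values from 9.23 to 15.16, below the list median of 19.47, and the 10 in both had, in the same list, a median of 38.88 and a range from 8.5 to 194.94. The peak in non-B cells alone had 7.42, against the list median of 19.37.

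Within Aff1 the compartments differed in opposite directions at different peaks. For each irradiated B cells peak the highest overlapping irradiated non-B cells peak was taken, and the ratio of the deposited values was set beside that of all 17868 such pairs, whose median log2 ratio of B over non-B was 0.17. At 8 of 10 Aff1 pairs the B cells value was higher, and at 2 it was lower. As the median over all pairs was positive, a higher B cells value was also the commoner direction in the whole set. The share of all pairs with a higher B cells value was not counted, so the 8 of 10 is a description only. The median log2 ratio of all 10 Aff1 pairs was 0.96, and without the highest peak that of the other 9 was 1.12. Of the 10 pairs, the most B-sided was a peak 33 kb inside the gene, with 30.26 in irradiated B cells and 6.17 in irradiated non-B cells, a log2 ratio of 2.29. The value of 6.17 ranked 21253 of 21400 in a list that starts at 5.27, so this ratio rests on a barely called peak. The peak 52 kb inside had 69.81 and 39.96, and the peak 54 kb inside had 58.55 and 41.97, with log2 ratios of 0.80 and 0.48.

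The highest Aff1 peak went the other way, with 194.94 in irradiated B cells and 490.24 in irradiated non-B cells, a log2 ratio of -1.33. Of all 17868 pairs, 179 had a lower ratio. High peaks had higher values in irradiated non-B cells as a rule: the 302 pairs of the 300 highest irradiated B cells peaks had a median log2 ratio of -0.50, and 1 of them had a ratio below that of Aff1. At Psrc1 the log2 ratio of the highest peak was -0.88 and at Sp1 -0.91, with 50 and 38 of these 302 pairs below. A peak 64 kb inside Aff1 was also higher in irradiated non-B cells, with 8.5 and 21.02 and a log2 ratio of -1.31. These ratios come from 1 library on each side, and the depth and background of each library enter them.

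**Figure D5:**
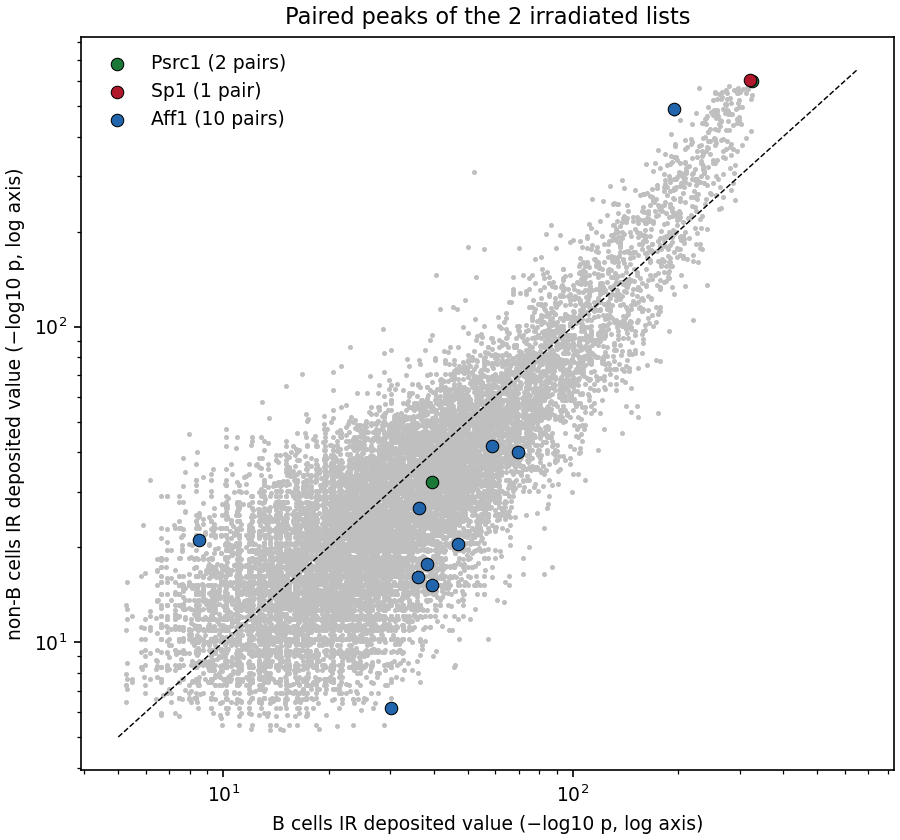
Deposited values (read as −log10 p, both axes logarithmic) of 17868 overlapping peaks of irradiated B cells (x) and irradiated non-B cells (y), with the pairs of Psrc1 (2), Sp1 (1) and Aff1 (10) in colour and equality as a dashed line. Psrc1 and Sp1 have their highest pairs together at the upper end, the highest Aff1 pair (194.94 and 490.24) lies at the upper edge of the cloud, and 8 of 10 Aff1 pairs lie below the line.

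Genes with the most similar standing in the 4 wild-type lists were found by the Euclidean distance between the percentiles of their highest peaks. For Psrc1 these were Ano10 (distance 1.97), Mgat5 (2.15) and Dcun1d3 (2.74). Ano10, a member of the anoctamin family, went from rank 49 to rank 125 in B cells and from 78 to 217 in non-B cells. Mgat5 went from 76 to 285 and from 97 to 43, and Dcun1d3 from 70 to 88 and from 71 to 29. The lists differ in length, and as a percentile of the list all of these genes rose in both compartments, as Psrc1 did. In B cells Ano10 went from 96.6 to 99.49, Mgat5 from 94.69 to 98.84 and Dcun1d3 from 95.12 to 99.6. In non-B cells the percentiles went from 89.19 to 98.99, from 86.52 to 99.8 and from 90.17 to 99.87. The genes were picked by these percentiles, so the likeness is built in. For Sp1 the nearest were Bbc3 (0.674), Myo1g (0.76) and Atp6v1e2 (1.2). Bbc3, which encodes the apoptosis inducer PUMA, had the highest peak of both mock lists and ranked 65 in irradiated B cells and 44 in irradiated non-B cells. For Aff1 they were Mtmr10 (0.381), a myotubularin-related gene, and Atp6v1e2 and Rhoq (both 0.842), which share a peak. Mtmr10 ranked 4 in both mock lists, 293 in irradiated B cells and 92 in irradiated non-B cells. As a percentile of the list it went from 99.79 to 98.81 in B cells. In non-B cells, where the mock list is far shorter, its percentile was nearly the same in mock and after irradiation, 99.58 and 99.57.

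No relative of Sp1 ranked as high as Sp1, though Sp7 also stood in the top 1% of both irradiated lists. Of the 9 genes of the Sp family, 6 had a peak within 10 kb in irradiated B cells and 6 in irradiated non-B cells. Only Sp1 and Sp7 had a peak in the mock lists, where 4.46% (B cells) and 2.27% (non-B cells) of all protein-coding genes had one. The best Sp7 peak ranked 705 in mock B cells and 315 in mock non-B cells. The irradiated counts are near the share over all protein-coding genes, 53.3% and 51.8%. The median percentile of the highest peak, with 0 for a gene without one, was 45.5 in irradiated B cells and 70.5 in irradiated non-B cells, against 15.3 and 10.6 over all protein-coding genes. Sp1 itself, chosen on its peak values, is 1 of the 9 and enters these counts and medians, which are a description only. Sp7, a factor of bone formation that lies 39.289 kb upstream of Sp1 on the opposite strand, had a peak at rank 119 in irradiated B cells and 161 in irradiated non-B cells. Sp6 ranked 888 and 1646, Sp4 ranked 2965 and 1922, and Sp3, which binds the same GC boxes as Sp1, ranked 14527 and 6306. Sp5, Sp8 and Sp9 had no peak in any list.

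Among the 14 genes of the AFF family and the super elongation complex, 13 had a peak in each irradiated list, with median percentiles of 65.6 in irradiated B cells and 65.9 in irradiated non-B cells. Over all protein-coding genes 53.3% and 51.8% had a peak there, and the median percentiles were 15.3 and 10.6. In mock lists Aff1 was joined by Aff3 alone, with a peak at rank 1400 of mock B cells. Aff4, the usual scaffold of the complex, had 3 peaks in each irradiated list with ranks of 9990 and 10999 at best. Cdk9, the kinase of the complex, had 8 peaks in irradiated B cells and 6 in irradiated non-B cells, with best ranks of 859 and 677, and its partner Ccnt1 had 3 in each, with 997 and 2571. Aff2 had no peak in any list.

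Of the 9 genes listed as spindle partners of Psrc1, 8 had a peak in irradiated B cells, 7 in irradiated non-B cells and 0 in either mock list, with median percentiles of 53.6 and 42.2. Over all protein-coding genes the shares with a peak were 53.3% and 51.8% in the irradiated lists and 4.46% and 2.27% in the mock lists, so 0 of 9 in mock is near the background. Hmmr, which encodes a spindle protein, had the highest, with ranks of 383 and 775. Kif2a and Kif2c, microtubule-depolymerising kinesins, had best ranks of 9475 and 7103 in irradiated B cells and of 12361 and 5013 in irradiated non-B cells. Known p53 targets stood much closer to the 3 genes in the irradiated lists. Of 20 such targets, 19 had a peak in each irradiated list, with median percentiles of 98.85 in irradiated B cells and 99.01 in irradiated non-B cells. In mock B cells and mock non-B cells 13 and 11 had a peak, and the median percentiles were 55.9 and 43.6. These mock medians lay below the highest peaks of all 3 genes in the same lists. Cdkn1a, which encodes the cell cycle inhibitor p21, ranked 54 in mock and 7 in irradiated B cells, and 50 in mock and 1 in irradiated non-B cells, ranks close to those of Psrc1. Mdm2, whose product degrades p53, ranked 179 and 189 in the irradiated lists.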

How the data were processed

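p53 ChIP-seq libraries (antibody NCL-p53-CM5p) had been made from pooled chromatin, 1 library per group. Per the methods, the authors masked low-quality bases with fastq_masker, aligned reads to mm9 with BWA (0.6.2 in the submitters' processing notes, which also name SAMtools) and called peaks with MACS v1.4.1 at a p-value limit of 1e-08. The lists deposited by the authors give 1 value per peak, taken as the −log10 of the caller's p-value. They have no header, and this unit was read from the range of the values, which starts at 5.01. Values below 40 were compared with −log10 Poisson tails of whole read counts at 1 background mean per wild-type list. Of these values 25.2% to 35.1% matched, so the comparison did not settle the unit. Below 8, the value of the p-value limit of 1e-08, lay 31.6% of peaks in mock B cells, 20.9% in mock non-B cells, 4.50% in irradiated B cells and 4.53% in irradiated non-B cells. Neither the unit nor the limit of the lists is therefore certain. The values were not normalised between libraries and were used for ranks within a list, a tie taking the better rank, and as ratios between overlapping peaks where stated. No list of the Input library was analysed here.

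The 3 genes and the gene lists were chosen with earlier results of these data known. Gene windows were GENCODE vM1 bodies with 10 kb on either side. Overlap meant at least 1 bp. Sequences were read from mm9 with pysam 0.24.0 and scanned in Python 3.11.15 for pairs of decamers; as the decamer consensus reads the same on both strands, 1 pass covered both. The genes named were the 3 genes, their neighbours in the windows, the 3 protein-coding genes nearest to each in percentile, and members of 4 gene lists; Fyn and other genes at tied peaks were named after their values were seen. Shares carry Wilson 95% intervals for counting error. With 1 library per group no test was made, so no p-value is given. On simulated data, the overlap, rank, element and merging steps recovered all 5 of 5 known quantities.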

Additional observations from a re-analysis of the deposited data

How the results depend on the processing

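Of 72 alternative values, 56 stayed within 1.5 times the count or rank, or within the interval of the share, and 16 moved. With a minimum value of 20 the 3 windows held 12 peaks in irradiated B cells and 9 in irradiated non-B cells. Ranked by width, Psrc1 was 27th, 38th, 53rd and 64th in mock B cells, irradiated B cells, mock non-B cells and irradiated non-B cells. By width Sp1 was 342nd in irradiated B cells, 9th in mock non-B cells and 170th in irradiated non-B cells, and Aff1 was 11th in mock B cells, 62nd in irradiated B cells and 151st in irradiated non-B cells. With a minimum value of 8, 100% of the irradiated non-B cells peaks overlapped a peak of irradiated B cells. A spacer of 0 to 13 bases gave elements in 50% of irradiated B cells and 43.8% of irradiated non-B cells peaks, and the whole-list share for this rule was not counted. The rule of 3 mismatches at any position, chosen after seeing the data, gave 45.5% in irradiated B cells, against 23.0% of the whole list. In irradiated non-B cells it gave 31.25%, which stayed within the interval, against 22.2% of the whole list. These wider rules allow more letters, so they match more sequence of any kind. Extension of the windows, merging of close peaks, removal of Trp53-/- peaks and stricter overlaps moved no value past these limits. The limits that remain are 1 library per group, unknown read depth and lists that hold only called peaks. No paired analysis was possible because a condition had a lone library.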
